A study of Mus musculus with 6 samples.

Results

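The interferon response genes described here are 44 mouse genes that interferons are known to induce: the antiviral effectors of the Ifit, Oas, Mx, Gbp and Ifitm families, the transcription factors that switch them on, and the genes that load peptides onto MHC class I. They were chosen by symbol, from a list drawn up with earlier results of these data known, and all 44 matched 1 Ensembl gene each among the 24815 genes of every library. RNA sequencing had been done on common myeloid progenitors (CMPs) of the E13.5 fetal liver of C57BL/6 mice, in 3 wild-type libraries, labelled A, F and L, and in 3 libraries homozygous for the -77-/- allele, labelled C, D and Q. That allele lacks an enhancer far upstream of Gata2, a gene for a transcription factor of blood stem and progenitor cells. The labels give the mutation as present in the animals and name no Cre or other agent, and they do not say whether a library came from 1 embryo or from several. The p-values below therefore measure the spread between these libraries, which may be technical. The cells were sorted as negative for lineage antigens and Sca-1, positive for CD34 and c-Kit and low for the Fc receptor.

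Interferons are secreted proteins that warn cells of infection. Type I interferons bind the receptor of Ifnar1 and Ifnar2, and interferon gamma binds that of Ifngr1 and Ifngr2. The kinases Jak1, Jak2 and Tyk2 then phosphorylate STAT proteins. A complex that holds Stat2 and Irf9 binds the interferon-stimulated response element (ISRE) before type I target genes, and the gamma-activated site (GAS) lies before targets of interferon gamma. Blood stem and progenitor cells are known to keep some interferon-induced genes switched on without infection, and interferon signals are known to act on blood stem cell formation and proliferation in the embryo.

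The RefSeq start regions of 6 genes on which the values below turn were searched for these elements. Each sequence is the RefSeq window of 300 bases on GRCm38.p6, from 250 bases before the annotated start to 50 after it, written along the gene's strand. Capitals mark the ISRE-type repeat GAAANNGAAA, or the GAS-type palindrome TTCNNNGAA, found on either strand. A match on the opposite strand appears as its reverse complement, and overlapping matches run together. Ifit1 holds 2 ISRE-type repeats, Isg15 holds 3 that overlap, and Gbp3, in the first of its windows, holds 2 that overlap. Igtp holds 1 of each kind, Irf1, in the first of its windows, holds 1 GAS-type palindrome, and Ifitm1 holds neither. The Ifitm1 window lies wholly inside the span of that gene in GENCODE M21 (140967221 to 140969825). The bases before that span were therefore not searched.
Ifit1 (chr19:34640639-34640938, plus strand): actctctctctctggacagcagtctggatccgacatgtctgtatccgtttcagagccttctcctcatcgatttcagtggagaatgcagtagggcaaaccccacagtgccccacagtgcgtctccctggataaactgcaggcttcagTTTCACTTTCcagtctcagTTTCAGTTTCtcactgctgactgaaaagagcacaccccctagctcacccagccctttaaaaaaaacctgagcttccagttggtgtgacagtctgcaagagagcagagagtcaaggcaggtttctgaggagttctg
Isg15 (chr4:156200769-156201068, minus strand): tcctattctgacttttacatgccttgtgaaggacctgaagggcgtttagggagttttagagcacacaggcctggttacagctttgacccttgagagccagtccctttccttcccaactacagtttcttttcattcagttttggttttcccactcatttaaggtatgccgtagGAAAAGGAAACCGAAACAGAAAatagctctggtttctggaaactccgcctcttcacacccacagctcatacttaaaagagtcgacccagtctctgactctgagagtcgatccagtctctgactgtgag
Gbp3 (chr3:142559794-142560093, plus strand): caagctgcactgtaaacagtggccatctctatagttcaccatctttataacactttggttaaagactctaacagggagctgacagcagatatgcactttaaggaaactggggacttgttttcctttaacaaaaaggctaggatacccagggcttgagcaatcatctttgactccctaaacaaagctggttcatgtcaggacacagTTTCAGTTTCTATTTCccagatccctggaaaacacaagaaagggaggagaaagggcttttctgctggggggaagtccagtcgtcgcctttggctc
Igtp (chr11:58199306-58199605, plus strand): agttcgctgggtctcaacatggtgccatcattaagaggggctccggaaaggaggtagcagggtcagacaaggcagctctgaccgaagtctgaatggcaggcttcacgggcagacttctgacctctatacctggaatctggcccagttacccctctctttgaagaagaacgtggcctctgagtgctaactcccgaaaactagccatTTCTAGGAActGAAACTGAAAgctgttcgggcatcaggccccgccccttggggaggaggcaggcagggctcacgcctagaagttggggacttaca
Irf1 (chr11:53769764-53770063, plus strand): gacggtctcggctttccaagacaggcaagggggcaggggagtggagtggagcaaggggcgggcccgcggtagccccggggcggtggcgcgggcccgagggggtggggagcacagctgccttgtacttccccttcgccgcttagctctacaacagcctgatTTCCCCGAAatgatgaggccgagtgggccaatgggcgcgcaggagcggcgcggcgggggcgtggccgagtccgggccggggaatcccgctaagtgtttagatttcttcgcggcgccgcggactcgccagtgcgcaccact
Ifitm1 (chr7:140967826-140968125, plus strand): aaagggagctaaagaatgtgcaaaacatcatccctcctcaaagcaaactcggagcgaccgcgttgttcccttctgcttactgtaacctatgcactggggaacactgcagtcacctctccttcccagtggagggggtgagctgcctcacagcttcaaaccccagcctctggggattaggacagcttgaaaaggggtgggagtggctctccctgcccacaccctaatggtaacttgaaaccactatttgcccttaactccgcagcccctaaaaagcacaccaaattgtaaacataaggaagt

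Of the 44 genes, 35 had at least 1 such window. The ISRE-type repeat was in a window of 17 of these 35 (48.6%), against 3.99% of the 27025 genes with a window. The GAS-type palindrome was in a window of 11 of the 35 (31.4%), against 9.55% of all genes. A match is a run of letters, not a measured binding site, and a window without one shows only that the letters are not in those 300 bases. The genes also lie close together: 24 of the 44 fell into 9 clusters with gaps of at most 100 kb. The tightest holds Psmb9, Tap1, Psmb8 and Tap2 at 34181987 to 34216321 on chromosome 17 (mm10). In that annotation Psmb9 overlaps Tap1 and Dtx3l overlaps Parp9, each pair on opposite strands. Whether counting used strand is not given in the sources used here, so reads in those overlaps may have been counted for either gene.

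The libraries held 14473913 to 30596279 expected counts. Gata2 was at 57.4 to 78.6 CPM (counts scaled to library size) in the wild type and 8.92 to 17.8 CPM in the mutants, and CMP genes such as Kit, Cd34, Flt3 and Mpo were present in every library. Mutant C stood apart over the whole of its genes. Averaged over counts, the genes read had a deposited length of 1781 bases in mutant C against 2834 to 3124 bases in the other 5 libraries. Ribosomal protein genes took 21.8% of its counts against 6.82% to 9.21%, and mitochondrial genes took 10.1% against 3.54% to 5.797%. Fitted changes are therefore given with all 6 libraries and without mutant C. In bulk samples such as these, fewer cells of a type and less RNA per cell cannot be told apart.

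The genes differed widely in level per length. By mean TPM (transcripts scaled to gene length and library size) over the 6 libraries, 5 genes were at 100 or more, 20 at 10 or more, 35 at 1 or more and 9 under 1. B2m, the light chain that every MHC class I molecule shares, was highest. Its TPM was 621, 668 and 702 in wild-type A, F and L and 907, 668 and 621 in mutants C, D and Q. Ifitm2 and Ifitm1, small membrane proteins that block virus entry, came next. Ifitm2 was at 306, 296 and 293 TPM in the wild type and 253, 283 and 262 TPM in mutants C, D and Q. Ifitm1 was at 156, 117 and 117 TPM in the wild type and 441, 157 and 159 TPM in the mutants, so only mutant C was far from the rest. The place of Ifitm1 in this order rests on mutant C. Psmb8, a subunit of the immunoproteasome, had a mean of 181 TPM against 191 for Ifitm1, and was above Ifitm1 in every library but mutant C. At the low end, Ifi44, an interferon-induced cytosolic protein, had 8.38 expected counts in total. The classical type I targets Ifit1, Ifit3, Oas2, Oas3, Oasl1, Mx2 and Rsad2 were all below 3 TPM in every library.

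**Figure D1:**
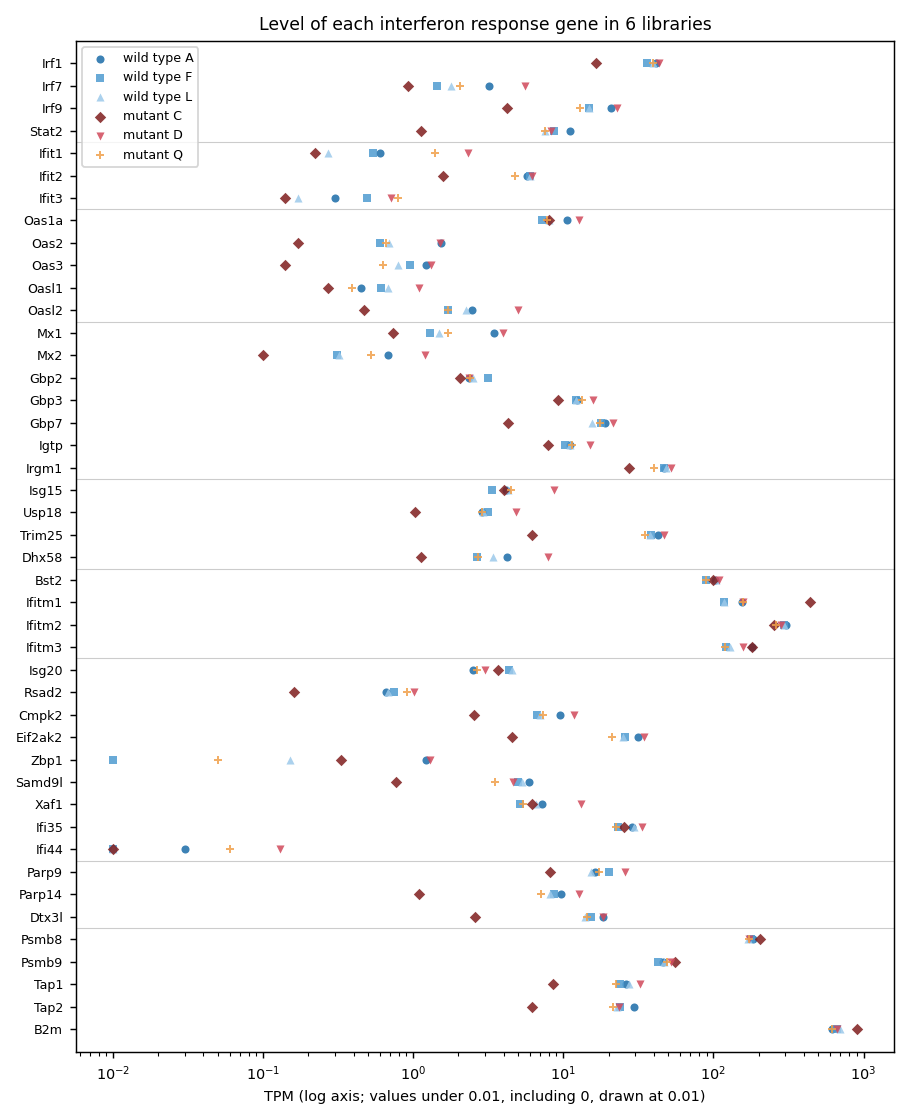
Deposited TPM (log axis) of each of the 44 genes in each library, with lines between the groups by role. By mean TPM, B2m, Ifitm2 and Ifitm1 lie highest and Ifi44 lowest, although Psmb8 lies above Ifitm1 in every library but mutant C. The mutant C points lie to the left of the rest in many rows and to the right for Ifitm1 and B2m.

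The first comparison asked which of these genes differ between wild-type and -77-/- CMPs. No interferon response gene passed edgeR's test, whether or not mutant C was counted, and 1, Ifit1, passed DESeq2's test without mutant C. Most of the fitted values nevertheless lay above 0: on the count scale 31 of the 41 tested genes had a log2 change above 0 (75.6%, against 48.0% of all 12222 genes tested), but on the log2(TPM + 1) scale, where the median of all genes was -0.50, only 14 did. The median log2 change of the 41 was 0.46, against -0.02 for all genes. On the log2(TPM + 1) scale it was -0.13, which is 0.37 above the median of all genes, and 32 of the 41 lay above the median of all genes on either scale. The fitted changes ran from -0.44 (Samd9l) to 2.12 (Ifitm1), and without mutant C from -0.32 (Isg20) to 2.04 (Ifit1).

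With all 6 libraries, edgeR's quasi-likelihood test with Benjamini-Hochberg adjustment called 0 of the 41 at an adjusted p under 0.05, where it called 0.155% of all genes. The smallest adjusted p of a member by edgeR was 0.578. An unadjusted p under 0.05 in the higher direction was reached by 5 (12.2%), against 1.71% of all genes, and by 0 in the lower direction, against 3.09% of all genes. DESeq2, which called 1.16% of all genes, and limma-voom, which called 0.262%, also called 0. For DESeq2 that is 0 of 40 members, because it gave no adjusted p for Ifitm1. Ifit3, Zbp1 and Ifi44 did not pass the filter on low counts.

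Without mutant C, edgeR called 0 of 43, against 0.840% of 12614 genes, with a smallest adjusted p of 0.0688 for Ifit1. The log2 change was above 0 for 37 of the 43 (86.0%, against 48.3% of all genes), with a median of 0.25 against -0.01. An unadjusted p under 0.05 in the higher direction was reached by 10 (23.3%), against 4.34% of all genes, and by 0 in the lower direction, against 6.02%. The 10 include Ifit3, which passed the filter only through mutants D and Q, the libraries where it was high, and so had to differ. An analysis added after the data were seen, DESeq2 without mutant C, called 2.0% of all genes and 1 member, Ifit1. Its limma-voom counterpart called 0.880% of all genes and 0 members.

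Read without a model, 7 of the 41 had all 3 mutant libraries above all 3 wild-type libraries (17.1%, against 10.6% of all genes): Irf1, Ifit1, Gbp3, Igtp, Isg15, Ifitm1 and Psmb9. For 0 of the 41 were all mutants below, against 11.4% of all genes. Without mutant C the count higher was 13 of 43, Ifit3 among them, against 14.3% of all genes.

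**Figure D2:**
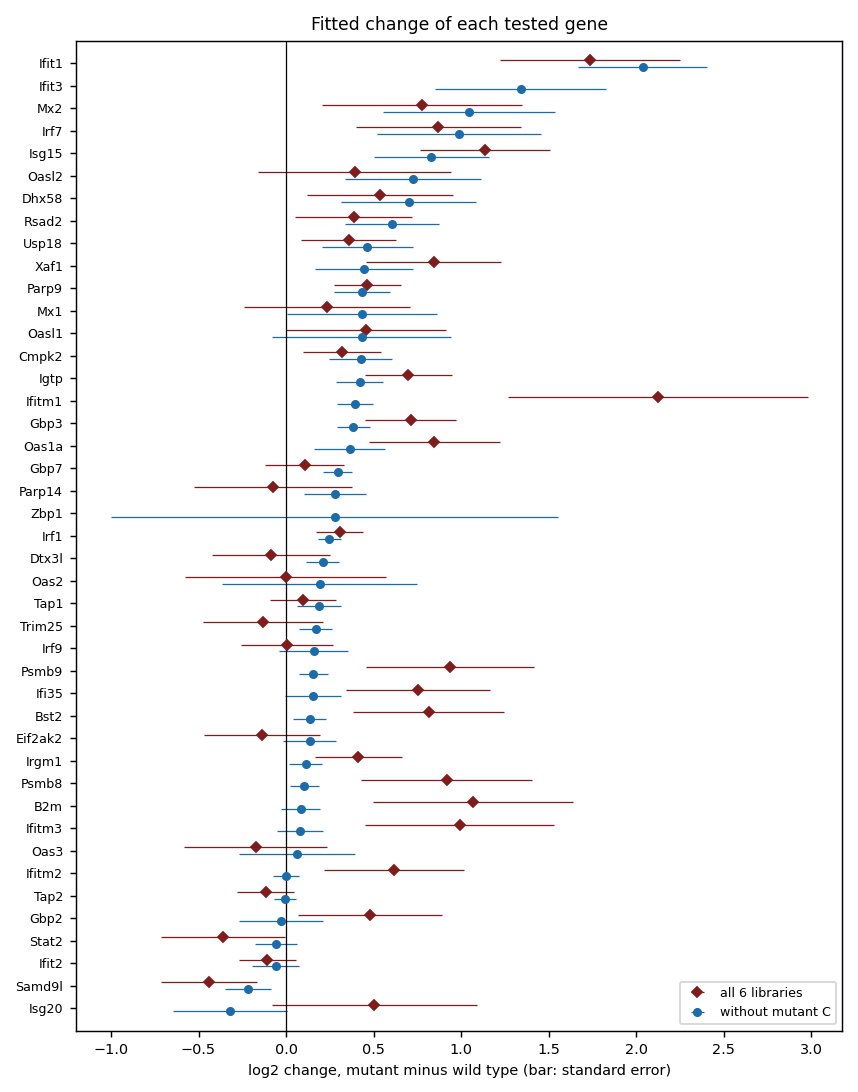
Fitted log2 change, mutant against wild type, of each tested interferon response gene, with all 6 libraries and without mutant C; bars are standard errors. Most points lie above 0 in both count fits, although 14 of 41 did so on the log2(TPM + 1) scale, and the bars without mutant C are shorter for most genes.

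Values by role follow, as CPM scaled by TMM factors, always in the order wild-type A, F and L and then mutants C, D and Q. Among the 4 transcription factors, Irf1, which responds to interferon gamma through its GAS, had the smallest p. Irf1 (chr11:53770014-53778374) was at 39.2, 40.2 and 41.9 CPM in the wild type and 53.6, 47.4 and 49.0 CPM in the mutants. All mutant libraries lay above all wild-type libraries, by a small margin. The fitted fold was 1.24 (log2 0.31 ± 0.14 SE, edgeR unadjusted p = 0.0605, adjusted p = 0.578) with all libraries. It was 1.19 (log2 0.25 ± 0.064 SE, edgeR unadjusted p = 0.00545, adjusted p = 0.213) without mutant C. On the log2(TPM + 1) scale the value of Irf1 was -0.35, with the opposite sign. Irf7, which amplifies type I responses, was at 2.43, 1.45 and 1.60 CPM and at 2.53, 5.59 and 1.92 CPM, with mutant D more than 2 times every other library. Irf9 and Stat2, which belong to the ISRE-binding complex, had log2 changes of 0.01 and -0.36 with all libraries and of 0.16 and -0.06 without mutant C.

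The Ifit proteins bind foreign RNA ends and block its translation. Ifit1 (chr19:34640871-34650009) was at 0.756, 0.757 and 0.414 CPM in the wild type and 0.881, 3.25 and 2.17 CPM in mutants C, D and Q. Mutants D and Q stood well clear of the wild type, and mutant C lay just above it. The fold was 3.33 with all libraries (log2 1.73 ± 0.51 SE, edgeR unadjusted p = 0.0134, adjusted p = 0.578). Without mutant C it was 4.10 (log2 2.04 ± 0.37 SE, edgeR adjusted p = 0.0688). DESeq2 without mutant C gave 4.16-fold (log2 2.06 ± 0.51 SE, adjusted p = 0.00465), the only call of a member by any tool run. Ifit3, a partner of Ifit1, was at 0.239, 0.441 and 0.178 CPM and at 0.330, 0.622 and 0.806 CPM. Mutants D and Q lay above the wild type and mutant C within its range. Ifit3 has a near-identical copy, Ifit3b, which was given 7.45 expected counts in all, so its reads may be split. Ifit2, the third member, differed little, with a log2 change of -0.11 with all libraries and -0.06 without mutant C.

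The Oas enzymes sense double-stranded RNA and activate RNase L, and the Oasl proteins are relatives of them. Oas1a had the smallest p of this group. Oas1a (chr5:120896256-120907521) was at 9.18, 6.999 and 7.99 CPM in the wild type and 23.02, 12.4 and 8.59 CPM in the mutants. Mutants C and D lay above every wild-type library and mutant Q within their range. The log2 change was 0.85 ± 0.37 SE (edgeR unadjusted p = 0.0609, adjusted p = 0.578), and 0.36 ± 0.20 SE without mutant C. Oas2, Oas3, Oasl1 and Oasl2 had log2 changes between -0.17 and 0.46 with all libraries, and between 0.06 and 0.73 without mutant C. Oasl2 was at 3.58, 2.77 and 3.73 CPM and at 1.65, 8.22 and 3.13 CPM, so that mutant D was highest and mutant C lowest of the 6.

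The Mx proteins and the guanylate-binding and immunity-related GTPases attack viruses and the vacuoles of intracellular microbes. All 7 had a log2 change above 0 with all libraries on the count scale, where 48.0% of all genes did, and 6 of 7 without mutant C, where 48.3% did. Gbp2 went from 0.48 to -0.03 when mutant C was left out, and Gbp7 reversed on the log2(TPM + 1) scale (-0.49) and without mutant D (-0.043). Gbp3 (chr3:142560026-142573209) was at 15.3, 17.0 and 17.2 CPM in the wild type and 38.1, 22.3 and 21.0 CPM in the mutants. Igtp (chr11:58199556-58207591) was at 10.3, 10.6 and 11.9 CPM and at 24.0, 16.0 and 13.4 CPM. In both genes the 3 mutant values exceeded the 3 wild-type values, with mutant C highest. The fold of Gbp3 was 1.64 (log2 0.71 ± 0.26 SE, edgeR unadjusted p = 0.0320, adjusted p = 0.578) with all libraries and 1.31 without mutant C (unadjusted p = 0.00476, adjusted p = 0.199). The fold of Igtp was 1.62 (log2 0.70 ± 0.25 SE, edgeR unadjusted p = 0.0282, adjusted p = 0.578) and 1.34 without mutant C (unadjusted p = 0.0147, adjusted p = 0.320). Gbp7 (chr3:142530342-142550149) was at 48.4, 51.6 and 45.9 CPM and at 36.9, 62.8 and 57.2 CPM. Mutant C was the lowest of the 6 for Gbp7 and mutants D and Q the highest, with a log2 change of 0.11 ± 0.22 SE with all libraries. Without mutant C it was 0.29 ± 0.081 SE (edgeR unadjusted p = 0.00789, adjusted p = 0.257).

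Isg15, a ubiquitin-like protein that is joined to other proteins after interferon exposure, was low throughout. Isg15 (chr4:156199424-156200818) was at 1.39, 1.26 and 1.66 CPM in the wild type and 4.52, 3.30 and 1.89 CPM in the mutants, with no overlap. Its fold was 2.20 (log2 1.14 ± 0.37 SE, edgeR unadjusted p = 0.0205, adjusted p = 0.578), and 1.78 without mutant C (unadjusted p = 0.0373, adjusted p = 0.450). Usp18, which removes Isg15 from proteins, had a log2 change of 0.36, and Dhx58, an RNA helicase that tunes RNA sensing, one of 0.54. Without mutant C these were 0.46 and 0.70. Trim25, a ubiquitin ligase of the RIG-I pathway, was at 111, 112 and 114 CPM in the wild type and 53.4, 139 and 115 CPM in the mutants. The wild-type libraries of Trim25 were nearly equal, and mutants C and D lay far from them on opposite sides.

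Bst2 tethers budding virus particles, and the 3 Ifitm proteins block virus fusion. Ifitm1 (chr7:140967221-140969825) was at 41.7, 35.1 and 35.2 CPM in the wild type and 389, 46.5 and 52.4 CPM in the mutants. The groups did not overlap, but mutant C was more than 7 times as high as every other library. The fold was 4.35 with all libraries (log2 2.12 ± 0.86 SE, edgeR unadjusted p = 0.0452, adjusted p = 0.578) and 1.31 without mutant C (log2 0.39 ± 0.10 SE, unadjusted p = 0.00569, adjusted p = 0.216). Ifitm2 (chr7:140954837-140955987) was at 84.5, 92.4 and 93.2 CPM and at 234, 88.9 and 92.1 CPM. For Ifitm2 mutant C alone lay outside the range of the others, and the log2 change was 0.62 ± 0.40 SE with it and 0.00 ± 0.075 SE without it. On the log2(TPM + 1) scale Ifitm2 was at -0.17. Ifitm1 and Ifitm2 lie in 1 cluster, and their deposited lengths are alike, at 599 and 627 bases. The TPM ratio of Ifitm1 to Ifitm2 was 0.510, 0.396 and 0.398 in the wild type and 1.74, 0.554 and 0.605 in the mutants.

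Of the 9 other antiviral effectors, 7 were tested with all libraries. Xaf1, an apoptosis-promoting protein, had the smallest p with all libraries. Xaf1 (chr11:72301629-72313733) was at 3.30, 3.78 and 4.26 CPM and at 10.2, 6.69 and 3.72 CPM. Mutants C and D lay above the wild type and mutant Q within it, with a log2 change of 0.84 ± 0.38 SE (edgeR adjusted p = 0.578), and 0.45 ± 0.28 SE without mutant C. Cmpk2, a mitochondrial nucleotide kinase that neighbours Rsad2, was at 14.0, 11.2 and 11.9 CPM and at 12.6, 19.8 and 13.8 CPM (chr12:26469204-26479837). Its groups overlapped, with mutant D highest, and its log2 change was 0.32 ± 0.22 SE, 0.43 ± 0.18 SE without mutant C (edgeR unadjusted p = 0.0486, adjusted p = 0.480), and -0.26 on the log2(TPM + 1) scale. Samd9l, a translation inhibitor, was the lowest of all members in fitted change with all libraries, at 12.9, 13.9 and 15.1 CPM and at 6.39, 13.1 and 11.1 CPM. Its log2 change was -0.44 ± 0.27 SE, and -0.22 ± 0.13 SE without mutant C. Zbp1, a sensor of Z-form nucleic acid, was near the limit of detection, at 0.636, 0 and 0.0592 CPM and at 0.551, 0.669 and 0.0620 CPM.

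Parp9, Parp14 and Dtx3l act in ADP-ribosylation, and Parp9 and Dtx3l form a complex. Parp9 (chr16:35938470-35972605) was at 22.6, 31.5 and 24.7 CPM and at 37.4, 40.4 and 30.9 CPM. Only mutant Q fell within the wild-type range. Its fold was 1.38 (log2 0.46 ± 0.19 SE, edgeR unadjusted p = 0.0504, adjusted p = 0.578), and 1.35 without mutant C (unadjusted p = 0.0295, adjusted p = 0.426), with -0.13 on the log2(TPM + 1) scale. Parp14 was at 33.4, 33.9 and 32.6 CPM and at 12.6, 50.2 and 31.4 CPM. For Parp14 and Dtx3l, mutant C was the lowest of the 6 libraries and mutant D the highest.

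Psmb8 and Psmb9 are subunits of the immunoproteasome, Tap1 and Tap2 carry its peptides into the endoplasmic reticulum, and B2m completes the MHC class I molecule. Psmb9 (chr17:34181987-34187764) was at 25.2, 28.9 and 29.2 CPM and at 97.9, 30.3 and 31.6 CPM. B2m (chr2:122147686-122153083) was at 239, 291 and 312 CPM and at 1166, 293 and 304 CPM. In both genes mutant C was more than 3 times as high as every other library, and mutants D and Q lay within the wild-type range for B2m and just above it for Psmb9. The log2 change of Psmb9 was 0.94 ± 0.48 SE (edgeR adjusted p = 0.578), and 0.16 ± 0.085 SE without mutant C. The log2 change of B2m was 1.07 ± 0.57 SE (edgeR adjusted p = 0.578), and 0.08 ± 0.11 SE without mutant C. Tap1 and Tap2, whose transcripts are longer, had log2 changes of 0.10 and -0.12, and of 0.19 and -0.0074 without mutant C. The TPM ratio of Psmb9 to Tap1, which lie head to head, was 1.75, 1.79 and 1.70 in the wild type and 6.48, 1.60 and 2.16 in the mutants.

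The position of mutant C went with gene length. Gene length here is the deposited length, not the span of the gene on the chromosome. The ratio of CPM in mutant C to the mean of mutants D and Q was above 2 for 11 of the 41 tested members, and across these 41 it had a Spearman rho of -0.80 with gene length. Across 12221 genes rho was -0.74. Genes within 1 library are not independent replicates, and no p is given. The 21 members of at most 2417 bases had a median ratio of 1.97, against 1.68 for all genes as short. The 20 longer members had a median ratio of 0.504, against 0.646 for all longer genes. Ifitm1, B2m, Psmb8 and Psmb9 are among the short ones and Parp14, Trim25 and Stat2 among the long ones.

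**Figure D3:**
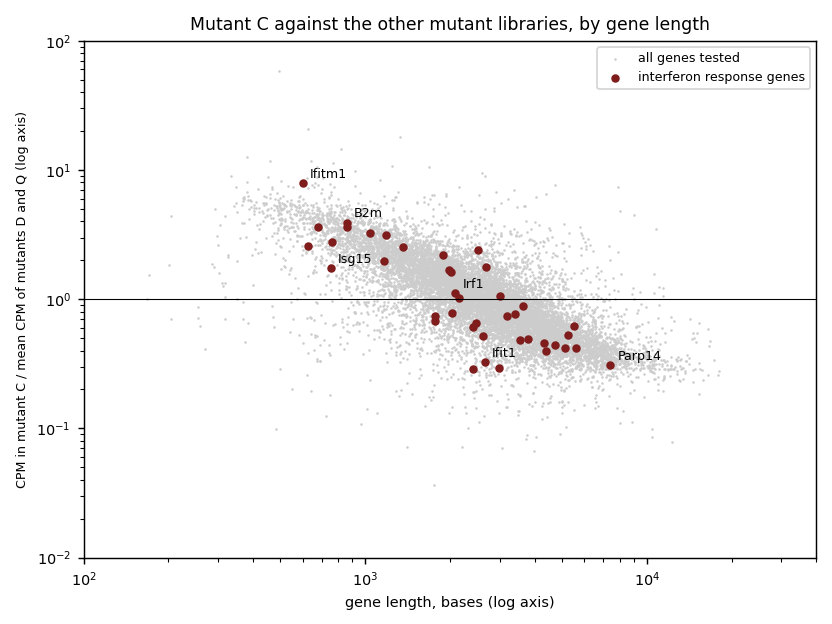
CPM in mutant C divided by the mean CPM of mutants D and Q (log axis) against gene length in bases (log axis), for all tested genes in grey and the 41 tested interferon response genes in dark red; 91 genes outside the axes or without a ratio are not drawn. The red points follow the downward band of all genes, with rho -0.80 over the members.

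With all libraries the median log2 change was 0.78 for the 21 short members and 0.00 for the 20 long ones, beside 0.33 and -0.21 for all short and all long genes. Without mutant C it was 0.25 for the short members and 0.20 for the long ones, beside 0.04 and -0.04 for all genes. How far length set the values of mutant C was not tested.

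With mutant C left out, mutant D was the highest library for most members. Mutant D lay above every wild-type library in 31 of the 41 tested members (75.6%, against 27.5% of all genes), and mutant Q in 13 (31.7%, against 29.3%). Among the 5 libraries other than mutant C, mutant D was the highest for 27 of 41 members (65.9%, against 19.2% of all genes), mutant Q for 5, wild-type L for 5, wild-type A for 3 and wild-type F for 1. The median log2 deviation of the tested members from the wild-type mean was 0.27 in mutant C, 0.40 in mutant D and 0.04 in mutant Q. Without mutant D the median fitted log2 change of the members was 0.25, and without mutant Q it was 0.64. These counts describe 1 library, which has no replicate of its own.

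**Figure D4:**
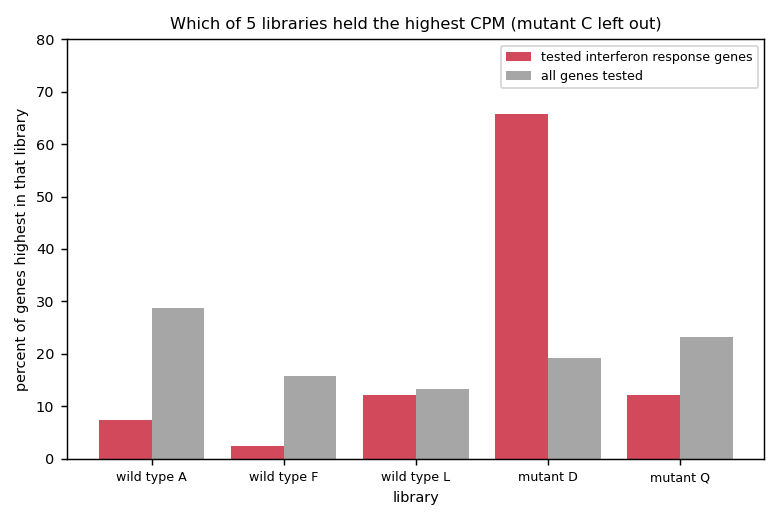
Percent of the 41 tested interferon response genes, and of all tested genes, for which each of the 5 libraries other than mutant C had the highest CPM. Mutant D was highest for 65.9% of the members and 19.2% of all genes.

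Mutants D and Q differed from each other gene by gene. Among the 41 tested members Irf7 was 2.91 times as high in D as in Q, Oas2 2.90 times, Oasl2 2.63 times, Dhx58 2.61 times and Oasl1 2.51 times. Mx2 was at 0.756, 0.378 and 0.414 CPM in the wild type and 0.330, 1.53 and 0.744 CPM in mutants C, D and Q. Mx1, the founding antiviral GTPase, was at 4.57, 1.83 and 2.31 CPM and at 2.09, 5.21 and 2.91 CPM. Wild-type A was the highest of its group for Irf7, Oas2, Mx1 and Mx2, and for Mx1 it lay close to mutant D. The 10 tested members not higher in D were Irf1, Stat2, Gbp2, Ifitm1, Ifitm2, Rsad2, Psmb8, Psmb9, Tap2 and B2m.

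**Figure D5:**
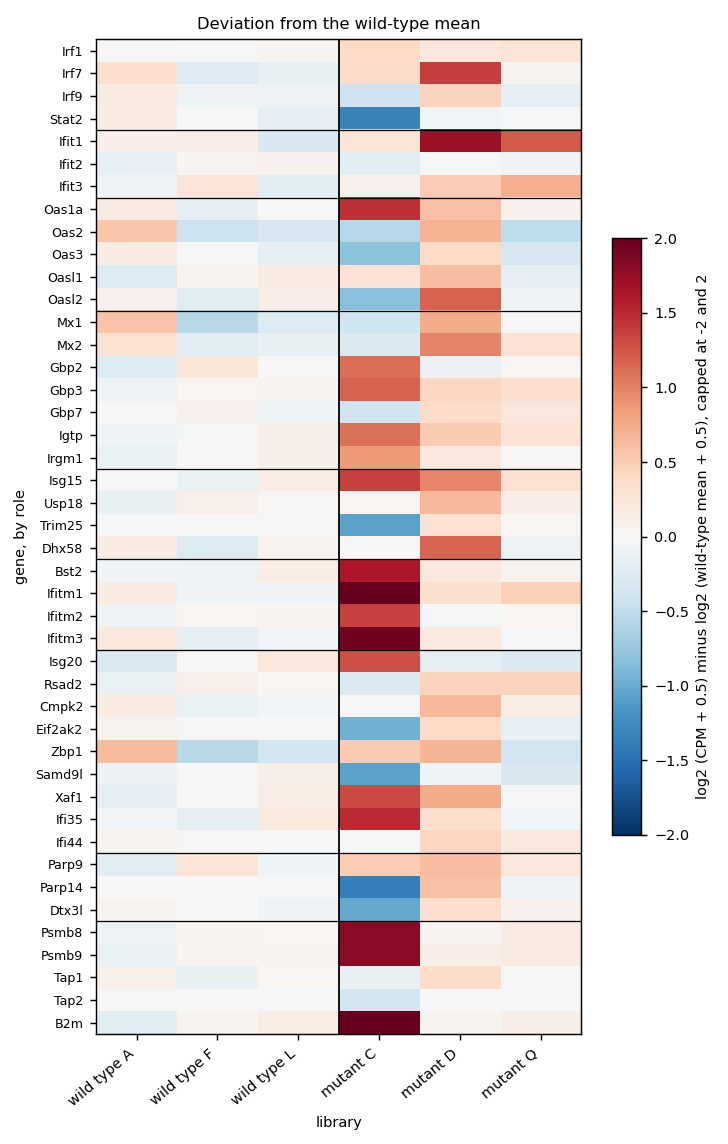
Log2 deviation of each library from the wild-type mean for each interferon response gene, ordered by role, with the colour capped at -2 and 2. Mutant D is mostly above the wild-type mean, mutant Q is near it, and mutant C holds both signs within most roles.

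Markers of other cell types moved with single libraries. The summed CPM of 10 macrophage markers was 163 to 185 in the wild type, 184 in mutant C, 222 in mutant D and 174 in mutant Q. Csf1r, which progenitors also express, made up most of it, with 202 CPM in mutant D against 146 to 166 CPM in the wild type, and Vsig4 was at 0 in every library. Adgre1, Cd68, C1qa, C1qb, C1qc, Marco and Timd4 were instead highest in mutant C, and Mrc1 in mutant Q. Of these, all but Adgre1 and Cd68 were low, at 2.97 CPM or less in every library. The sum of 9 hepatoblast markers was 51.4 to 107 CPM in the wild type, 200.3 in mutant C, 103 in mutant D and 562 in mutant Q, with all 9 detected. The 5 markers of plasmacytoid dendritic cells, a main source of type I interferon, summed to 83.6 to 94.7 CPM in the wild type, 51.8 in mutant C, 85.9 in mutant D and 85.0 in mutant Q, most of it from Tcf4. Tcf4 was at 39.4 CPM in mutant C against 75.1 to 80.6 CPM in the wild type. Siglech and Cox6a2 were instead highest in mutant C, at 2.97 and 4.52 CPM, while Ccr9 and Spib lay below their wild-type values there. The 9 lymphocyte markers summed to 39.8 to 49.6 CPM in the wild type, 142 in mutant C, 48.0 in mutant D and 45.4 in mutant Q, with Cd3e and Ncr1 at 0 in every library. The 8 erythroblast markers summed to 435 to 872 CPM in the wild type, 2182 in mutant C, 322 in mutant D and 309.5 in mutant Q. The summed markers of 4 other cell types were lower in all 3 mutants than in all 3 wild-type libraries, but some single markers were not. The 5 mast cell markers, Gata2 among them, summed to 131 to 148 CPM in the wild type and 21.2 to 25.4 CPM in the mutants, and the 5 megakaryocyte markers to 34.7 to 45.0 CPM and 9.80 to 16.85 CPM. Against those sums, the mast cell marker Mcpt8 was at 5.07 CPM in mutant C and 1.01 to 1.27 CPM in the wild type. The megakaryocyte markers Ppbp and Gp9 were also highest in mutant C. The 7 endothelial markers summed to 115 to 124 CPM in the wild type, 63.3 in mutant C, 100.01 in mutant D and 99.2 in mutant Q, and the 6 stromal markers to 27.0 to 31.0 CPM, 11.2, 24.7 and 26.3 CPM. Pdgfrb made up most of the stromal sum, and every other stromal marker was highest in mutant Q. The endothelial markers Cdh5, Stab2 and Lyve1 were highest there too. The part of these markers in the interferon gene values was not tested.

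The second comparison asked whether the rest of the pathway differed between genotypes. Of 10 interferon genes themselves, 7 had no count in any library and 3 had a single count in all. A count of 0 allows up to 0.0930 to 0.330 CPM, depending on the library, which is 3 counts per library and covers counting error only. The receptors of type I interferon and interferon gamma were all expressed, and Ifnlr1, of the receptor for interferon lambda, had 4.19 expected counts in total. Ifnar1 was at 76.0, 77.3 and 65.8 CPM in the wild type and 49.6, 75.5 and 70.4 CPM in the mutants. Ifnar2 was at 90.0, 85.7 and 89.0 CPM and at 121, 92.1 and 90.9 CPM. Ifnar1 overlapped between groups, and Ifnar2 was higher in all 3 mutants, by under 1 CPM in mutant Q. Ifngr1 was at 86.0, 77.8 and 76.3 CPM and at 133, 74.9 and 72.4 CPM. Ifngr2 was at 40.1, 36.4 and 38.1 CPM and at 53.2, 38.6 and 40.98 CPM. Mutant C was the highest library for both. The edgeR adjusted p-values of these 4 receptor genes with all libraries were 0.659, 0.603, 0.654 and 0.594 in that order, and 0.974, 0.847, 0.622 and 0.832 without mutant C.

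The receptor-bound kinases come next in the pathway. Jak1, which serves both receptor types, was at 179, 201 and 199 CPM in the wild type and 102, 189 and 170 CPM in the mutants. Jak2, which serves the interferon gamma receptor and also many cytokine receptors of blood cells, was at 69.6, 73.0 and 74.0 CPM and at 34.7, 59.8 and 54.5 CPM. Every mutant library of Jak2 lay below every wild-type library. Its log2 change was -0.54 ± 0.23 SE with all libraries (edgeR unadjusted p = 0.0524, adjusted p = 0.578) and -0.34 ± 0.076 SE without mutant C (unadjusted p = 0.00232, adjusted p = 0.140). Tyk2, the kinase bound to Ifnar1, was at 44.5, 39.98 and 38.5 CPM and at 29.5, 44.8 and 40.6 CPM. Its groups overlapped, with mutant C lowest.

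Of 40 listed signalling genes, 28 were tested and 0 called by edgeR in either fit, with a median log2 change of -0.07 with all libraries and 0.03 without mutant C. With all libraries 1 of the 28, the inhibitor Socs3, had an unadjusted p under 0.05 by edgeR, in the lower direction (3.09% of all genes). Without mutant C 2 were higher (4.34% of all genes) and 2 lower (6.02%) at that level. Of 76 further interferon-induced genes, 72 had an identifier, 56 were tested and 0 called, with 39 above 0 (48.0% of all genes were) and a median of 0.12 (-0.02 for all genes). An unadjusted p under 0.05 by edgeR, in the higher direction, was reached by 2 of the 56, Tgtp2 and Slfn2, and by 1.71% of all genes. Tgtp2, a GTPase of the Igtp family, was at 1.35, 3.15 and 2.43 CPM and at 9.14, 5.83 and 4.31 CPM, with no overlap. Slfn2, a Schlafen protein, was at 14.0, 14.6 and 13.8 CPM and at 51.7, 26.9 and 17.9 CPM, also with no overlap. Without mutant C, 59 were tested and 0 called by edgeR, with 8 higher (4.34% of all genes) and 6 lower (6.02%) at an unadjusted p under 0.05.

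DESeq2 without mutant C called 4 of these 28 signalling and 59 further genes, and 2.0% of all genes. DESeq2 and limma-voom with all libraries, as well as limma-voom without mutant C, called 0. Slfn2 rose by that test (log2 0.66 ± 0.20 SE, DESeq2 adjusted p = 0.0463), as did Irf8, a factor of monocyte and dendritic cell development (log2 0.39 ± 0.11 SE, adjusted p = 0.0181). Jak2 (log2 -0.34 ± 0.098 SE, DESeq2 adjusted p = 0.0302) and Stat3, which transmits many cytokine signals (log2 -0.40 ± 0.092 SE, adjusted p = 0.00128), fell by it. By edgeR without mutant C the adjusted p-values of Slfn2, Irf8, Jak2 and Stat3 were 0.216, 0.223, 0.140 and 0.105.

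The start-region motifs did not order the members by size of change in the same way in both fits. With all libraries the 16 tested members with an ISRE-type repeat had a median log2 change of 0.66 and the 17 without one 0.39. Without mutant C the medians were 0.14 for 17 members with the repeat and 0.19 for 17 without. Over all genes with the repeat, members included, the medians were 0.07 and 0.03, and over all genes without it -0.02 and -0.0048. For the GAS-type palindrome the 11 tested members had a median of 0.70 with all libraries and 0.14 without mutant C. The 22 without it had one of 0.43 with all libraries, and the 23 without it one of 0.21 without mutant C. Over all genes with the palindrome, members included, the medians were -0.03 with all libraries and -0.007 without mutant C. Over all genes without it they were -0.02 and -0.0035.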

How the data were processed

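Total RNA of sorted CMPs was sequenced in 6 libraries. Per the submitters' processing notes the authors used CASAVA 1.8.2, Bowtie 1.1.1 and RSEM 1.2.18 with genome build mm10; the annotation release and strand setting were not given in the sources used here. The deposited tables give, per the file headers, an expected count (RSEM's estimate, which shares out reads that match several genes), TPM (scaled to gene length and library size) and gene length, which is another deposited quantity.

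The 24815 identifiers were named from GENCODE M21, and 24448 had a symbol. Expected counts were rounded and tested with edgeR 4.0.16 (TMM factors, filterByExpr with a minimum count of 10, quasi-likelihood test, Benjamini-Hochberg adjustment over all genes, threshold 0.05) in R 4.3.3, with genotype the only term. DESeq2 1.42.0, limma-voom and limma-trend (limma 3.58.1) on log2(TPM + 1), DESeq2 size factors, no filter and each library left out were alternatives. The scripts were tested on simulated data.

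Members and lists were chosen with earlier results of these data known. Values per library are given for members with an unadjusted p under 0.05 in either fit, without overlap, among the 3 most abundant or with the smallest p of their role; others appear where a sentence turns on them. Libraries of 1 group differed beyond sampling noise (chi-square per gene at least 9.25). The values of 1 listed pathway gene are not reported here.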

Additional observations from a re-analysis of the deposited data

How the results depend on the processing

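Depth limits the low members: Ifit3, Zbp1 and Ifi44 were not tested with all libraries, and 3 libraries a genotype limit every error. edgeR called 19 genes with all libraries, 36 with no filter on low counts, and 0 to 106 with each library left out (106 without mutant C, 0 without any other 1); DESeq2 called 142, limma-voom 32, DESeq2 without mutant C 252 and limma-voom without mutant C 111. The count of members called stayed 0 except for 1 by DESeq2 without mutant C. Their median log2 change was 0.46, ran from 0.25 (without mutant C or D) to 0.64 (without mutant Q) with each library left out, and was -0.13 on the log2(TPM + 1) scale, where 14 of 41 members were above 0; that scale moved the median of all genes to -0.50. Of 154 values of named members under other settings, 6 reversed and 0 passed the threshold: on the log2(TPM + 1) scale Irf1 (-0.35), Gbp7 (-0.49), Ifitm2 (-0.17), Cmpk2 (-0.26) and Parp9 (-0.13), and without mutant D Gbp7 (-0.043, in a range up to 0.29 without mutant C). The cause of these reversals was not tested. With all libraries DESeq2 gave no adjusted p for Ifitm1, so that value could not pass. No paired analysis was possible because the replicate letters of the wild-type and mutant libraries are not shared.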
